A study of Homo sapiens with 2 samples.

Results

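Of the 22411 genes measured by 67528 transcript clusters, 9 were taken here: the receptors MET and RON (gene MST1R), their ligands HGF and MST1, the proteases HGFAC and ST14 that activate HGF, the protease inhibitors SPINT1 and SPINT2, and MACC1, a regulator of MET expression. A transcript cluster is the set of probes that an Affymetrix whole-transcript array assigns to a locus. The members were selected by gene symbol, each through 1 transcript cluster with a single annotated symbol. The set was chosen by its role, but also from a high value of MACC1 in these same arrays, so its differences are a description and none is a test. RNA came from 769-P, an established line of a non-metastatic human clear-cell renal cell carcinoma. The FOXK2 cells received, by lentivirus, pLV-EGFP-FOXK2 with the full coding sequence of FOXK2, a forkhead transcription factor, and the control cells received the plv-EGFP empty vector; both were grown in RPMI-1640 with fetal bovine serum. 1 array was run per group, so no value has a replicate check, an error or a p-value. The deposited labels do not say whether the transduced cells were a clone or a pool, nor how long after transduction RNA was taken.

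MET is the receptor tyrosine kinase of hepatocyte growth factor, HGF, which mesenchymal cells secrete as an inactive single chain. Serine proteases of the cell surface and the blood, among them matriptase (ST14) and the HGF activator (HGFAC), cut this chain, and the Kunitz-type inhibitors encoded by SPINT1 and SPINT2 block them. RON is the relative of MET that binds macrophage-stimulating protein, the product of MST1, which is processed by the same kind of protease. MACC1 was described in colon cancer as a factor that raises MET transcription. In the kidney the pathway takes part in tubule growth and repair, and MET is a drug target in renal carcinoma.

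The promoter windows of 3 members on chromosome 7 are shown because they belong to the ligand, its receptor and the member with the largest difference. They come from RefSeq on GRCh38.p14 and hold 250 bases before and 50 bases from the annotated start of transcription, 5′ to 3′ on the strand of the gene. 7 of the 9 members had a window in the table; ST14 and SPINT2 had none there. Capitals mark letters of the searched motifs other than the GC box. The MACC1 window lies at chr7:20217335-20217634 on the minus strand, that of MET at chr7:116671946-116672245 on the plus strand and that of HGF at chr7:81769998-81770297 on the minus strand.
MACC1: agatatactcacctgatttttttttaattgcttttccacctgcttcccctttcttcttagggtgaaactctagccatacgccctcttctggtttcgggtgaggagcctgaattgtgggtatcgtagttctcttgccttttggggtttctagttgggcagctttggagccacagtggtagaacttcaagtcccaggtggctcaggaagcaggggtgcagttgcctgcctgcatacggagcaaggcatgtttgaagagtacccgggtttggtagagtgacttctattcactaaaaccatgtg
MET: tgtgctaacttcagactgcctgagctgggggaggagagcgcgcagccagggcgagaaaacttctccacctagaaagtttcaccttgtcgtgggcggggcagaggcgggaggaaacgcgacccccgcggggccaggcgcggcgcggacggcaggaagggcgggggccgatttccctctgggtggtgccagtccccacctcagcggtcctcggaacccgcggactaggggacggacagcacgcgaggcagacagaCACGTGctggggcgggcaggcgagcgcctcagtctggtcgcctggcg
HGF: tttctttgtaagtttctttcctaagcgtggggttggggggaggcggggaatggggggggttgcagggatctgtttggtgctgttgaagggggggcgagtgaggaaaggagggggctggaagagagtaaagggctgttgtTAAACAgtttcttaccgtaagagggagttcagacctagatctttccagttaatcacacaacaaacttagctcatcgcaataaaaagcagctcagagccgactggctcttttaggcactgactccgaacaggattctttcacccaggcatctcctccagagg

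The windows were searched on both strands for the forkhead core TAAACA, its longer form GTAAACA, the hypoxia response core ACGTG, the GC box GGGCGG and the AP-1 site TGANTCA. None of the 5 was found in the MACC1 window, which had a GC content of 48.3% and 5 CpG dinucleotides. The MET window had a GC content of 69.3% with 30 CpG dinucleotides, against a median GC content of 58.3% over 27305 promoter windows of that length. It held 3 GC boxes and, from base 4 of the transcribed part, the capitals CACGTG, in which ACGTG is read once on each strand. The HGF window held TAAACA 111 bases before the start and was the only member window of the 7 with a forkhead core. TAAACA occurred in 12.4% of all promoter windows, GTAAACA in 3.41%, ACGTG in 21.6%, GGGCGG in 44.6% and TGANTCA in 7.76%. A match describes the letters of the reference genome and not a bound site, and a window without a match says nothing of binding elsewhere.

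MACC1 stood at 11.63 (log2) in the FOXK2 array and at 8.23 in the empty vector array. The level was higher with FOXK2 by 3.40 on the log2 scale, or 10.6-fold. A gene is called at least 2-fold different here if its log2 difference is at least 1 in size and its mean level over both arrays is no lower than 5.24, the median level of transcript clusters that carry a single gene symbol. Among the 11263 genes that reached this level limit, MACC1 ranked 10 from the highest difference. Its antisense transcript MACC1-AS1 was at 4.69 with FOXK2 and 4.35 with empty vector, below the level limit in both arrays. SH3BP4, the closest relative of MACC1 in sequence and an endocytic adaptor, was at 5.96 with FOXK2 and 6.43 with empty vector, so its difference of -0.47 had the opposite sign to that of MACC1.

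The receptor gene MET stood at 13.62 (log2) in the FOXK2 array and at 14.07 in the empty vector array. The difference was -0.45, or 1.37-fold lower with FOXK2, short of the 2-fold limit, and 16.3% of the genes at or above the level limit had a lower difference. The difference of MET thus had the opposite sign to that of MACC1 in the same pair of arrays. The MET value stayed below the highest value on the arrays, 19.93. Whether the probe signals of MET were compressed at its level was not tested. These are bulk RNA values, in which fewer cells with a transcript and less of it per cell cannot be told apart.

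**Figure D1:**
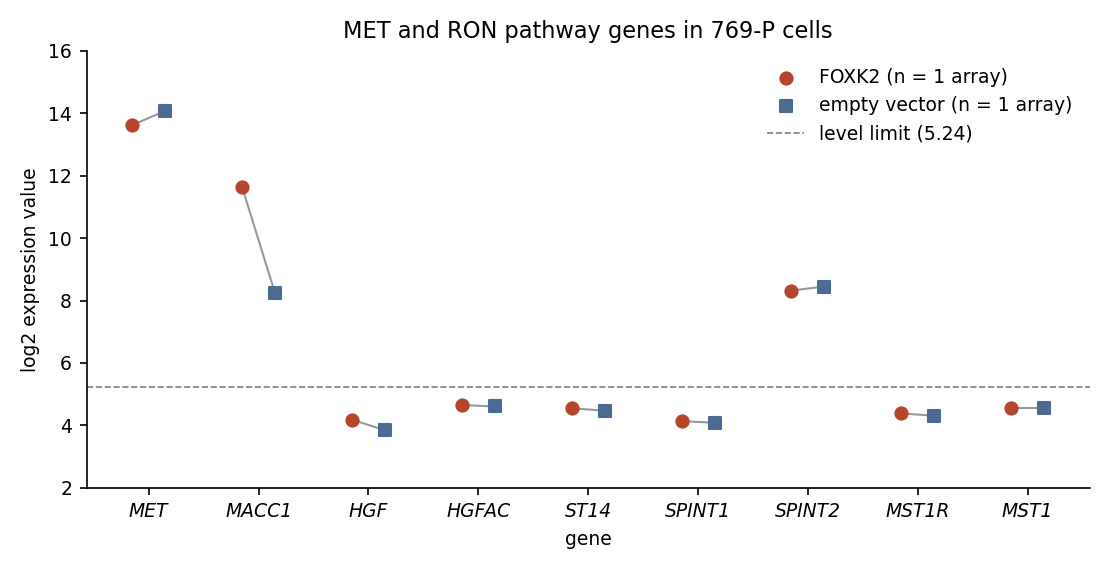
Log2 expression values (vertical axis) of the 9 genes (horizontal axis) in the FOXK2 array (circles) and the empty vector array (squares), 1 array each, with the level limit of 5.24 as a dashed line. MACC1 stands at 11.63 with FOXK2 and 8.23 with empty vector, MET and SPINT2 differ by -0.45 and -0.13, and the other 6 genes lie below the limit in both arrays.

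Neither ligand reached the level limit. HGF was at 4.18 in the FOXK2 array and 3.84 in the empty vector array and so differed by 0.34. MST1 was at 4.56 in both arrays, a difference of exactly 0; such identical pairs occurred in 1226 transcript clusters (1.82%). The near copy MST1P2, a pseudogene, was at 4.33 with FOXK2 and 4.39 with empty vector, and a cluster annotated to both MST1P9 and MST1L was at 4.59 with FOXK2 and 4.49 with empty vector. Since such copies can share probes, the value of MST1 may not be its own. RON, as MST1R, was at 4.38 with FOXK2 and 4.31 with empty vector, so of the 2 receptors MET alone reached the limit.

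The activating proteases among the members were low in both arrays. HGFAC, a serum protease made mainly by the liver, was at 4.65 with FOXK2 and 4.61 with empty vector. ST14, the membrane protease matriptase, was at 4.55 with FOXK2 and 4.47 with empty vector. Of the inhibitors, SPINT1 was at 4.14 with FOXK2 and 4.08 with empty vector, below the level limit. SPINT2 was the only member of the protease and inhibitor pairs at or above it, at 8.32 with FOXK2 and 8.45 with empty vector (difference -0.13). The 6 members below the limit had differences between 0 and 0.34. Whether their values lay above background is not known, since probe backgrounds were not used here, so a small difference there does not show that a transcript was present in either array.

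Of the 3 members at or above the level limit, 1 was at least 2-fold higher with FOXK2 and 0 were 2-fold lower. Over all genes at or above the limit, 2.13% were at least 2-fold higher and 3.05% at least 2-fold lower, 240 and 344 genes; after subtraction of the running median of neighbouring genes along the chromosome these were 269 and 231. At a limit of 1.5-fold the shares over all genes were 6.09% higher and 10.6% lower, and at 3-fold they were 0.87% higher and 0.737% lower; MACC1 passed each of these limits and no other member did. Because the members were chosen with the value of MACC1 known, nothing is read from their count. The median difference was 0.056 over the 9 members and 0.020 over all 22411 genes.

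**Figure D2:**
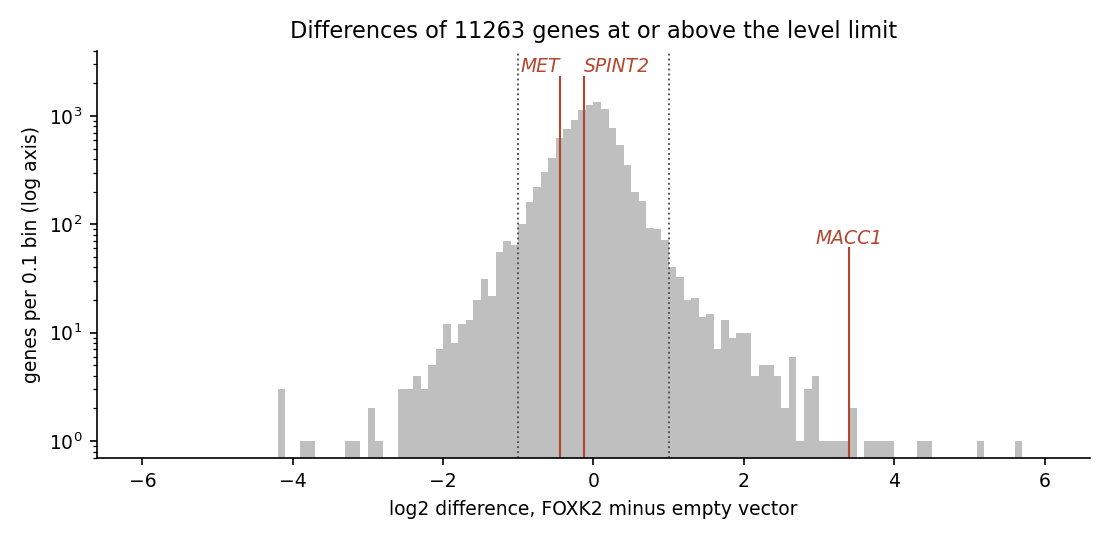
Number of genes per bin of 0.1 (vertical log axis) by log2 difference, FOXK2 minus empty vector (horizontal axis), for the 11263 genes at or above the level limit; dotted lines mark the 2-fold limits. MACC1 lies at 3.40, while MET at -0.45 and SPINT2 at -0.13 lie within the main body of genes.

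The proteases that can activate HGF or its activator were followed beyond the members in a list of 13 genes, all measured. 4 of the 13 reached the level limit, 0 were 2-fold different and the median over all 13 was 0.046. Of all 22411 genes, 11263 reached the limit, of which 2.13% were at least 2-fold higher and 3.05% lower. This list and the lists below were chosen with earlier results of these data known, so nothing is read from their counts. HPN, which encodes hepsin, a membrane protease that cleaves pro-HGF, was at 7.01 with FOXK2 and 6.06 with empty vector. Its difference of 0.95 was just short of 2-fold and reached 1.03 when the running median was subtracted. The running median is the median difference of 51 genes nearest in order on the same chromosome, all at or above the level limit. A gene at or above the limit is itself among its 51. PLAU, the urokinase protease, was at 6.53 with FOXK2 and 6.64 with empty vector. KLKB1, plasma prekallikrein, differed by -0.046 and PRSS8, prostasin, by -0.011. The signs of KLKB1 and PLAU turned when the running median was subtracted, to 0.26 and 0.18. The inhibitor list had 6 measured members of 7, 3 at or above the limit, 0 of them 2-fold different, and a median of -0.044. SERPINA1, which encodes alpha-1-antitrypsin, was at 7.50 with FOXK2 and 6.57 with empty vector (difference 0.93), and SERPINE2, protease nexin 1, differed by -0.099.

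Partners of MET at the membrane included genes past 2-fold in both directions. Of 12 measured, 10 reached the level limit, of which 1 was at least 2-fold higher with FOXK2 and 2 were lower, beside 2.13% higher and 3.05% lower over all genes at or above the limit. CD44, the hyaluronan receptor whose v6 variant acts as a coreceptor of MET, had 2 transcript clusters: one was at 6.76 with FOXK2 and 9.10 with empty vector, the other at 3.73 with FOXK2 and 5.65 with empty vector. Both were lower with FOXK2, and their mean differed by -2.13, or 4.37-fold. The value of 3.73 lies below the level limit, so the fold is uncertain; the first cluster alone was 5.05-fold lower. AXL, a receptor tyrosine kinase that can act together with MET, was at 9.73 with FOXK2 and 11.30 with empty vector, 2.98-fold lower. NRP2, a neuropilin that binds semaphorins and vascular growth factors, was at 7.36 with FOXK2 and 4.98 with empty vector, 5.19-fold higher, from a value below the level limit that makes the fold uncertain. ITGA6, the laminin-binding integrin chain, was at 8.75 with FOXK2 and 9.72 with empty vector (difference -0.97), and passed 2-fold only after centring of the arrays (-1.04). The list median was 0.006, with 6 positive and 6 negative differences. It was -0.13 over the 10 genes at or above the limit, and -0.11 over all 12 when the running median was subtracted.

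**Figure D3:**
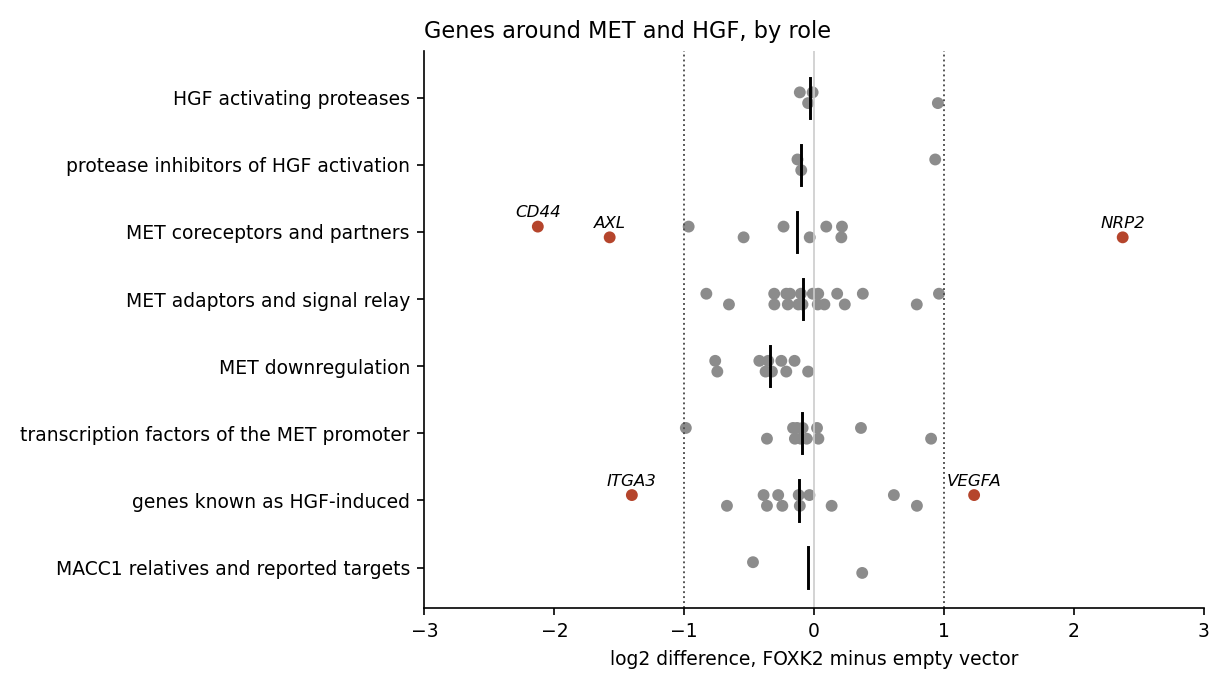
Log2 difference, FOXK2 minus empty vector (horizontal axis), of each gene at or above the level limit in 8 lists of genes around MET (vertical axis); red points are at least 2-fold different, black bars are medians of the points shown and dotted lines mark the 2-fold limits. CD44, AXL and ITGA3 lie to the left at -2.13, -1.57 and -1.40, and NRP2 and VEGFA to the right at 2.38 and 1.23.

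Inside the cell, all 19 measured adaptors and relay proteins of MET were at or above the level limit. None was 2-fold different, beside 2.13% higher and 3.05% lower over all genes at or above the limit. Of the 19, 11 (57.9%) had negative and 8 positive differences, with a median of -0.089. Over all genes at or above the limit 55.6% were negative, and of the 9603 coding genes there 5583 were. With the running median subtracted, 9 of the 19 were negative and 10 positive, and their median was 0.036. SHC1, an adaptor that links receptors to RAS, was at 9.25 with FOXK2 and 10.08 with empty vector (difference -0.83). RAPGEF1, an exchange factor for RAP1 that is recruited through CRK adaptors, was at 9.23 with FOXK2 and 8.26 with empty vector. Its difference of 0.96 was short of 2-fold but passed it when the trend on level was removed (1.01), with quantile-normalized arrays (1.03) and when the running median was subtracted (1.23). PIK3R1, the regulatory subunit of PI3-kinase, differed by 0.79 and NCK1, an adaptor to the actin cytoskeleton, by -0.66, or by -0.28 with the running median subtracted. GAB1, the docking protein on which MET signalling relies, was at 7.19 with FOXK2 and 6.95 with empty vector.

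Genes linked to the downregulation of MET, by way of ubiquitination, dephosphorylation or shedding, were measured for 14 of 16 listed. The list was chosen with earlier results of these data known, so nothing is read from its counts or signs. It was not limited to genes that act on MET in the same direction. All 10 at or above the level limit had negative differences, with a median of -0.34 over these 10 and of -0.23 over all 14, and none was 2-fold lower. Of all genes at or above the limit 55.6% had negative differences and 3.05% were at least 2-fold lower. Of the 9603 coding genes there, 5583 had negative differences. CBL, the ubiquitin ligase that marks MET for breakdown, was at 8.22 with FOXK2 and 8.98 with empty vector (difference -0.76). ADAM10, a protease that can shed the MET ectodomain, was at 11.65 with FOXK2 and 12.39 with empty vector (difference -0.75). The phosphatases PTPN2 and PTPN1, which act on MET, differed by -0.42 and -0.37. With the trend on level removed, and with quantile-normalized arrays, 9 of the 10 were negative. When the running median was subtracted 7 of the 10 were negative, with a median of -0.20 over these 10 and of -0.014 over all 14. In that setting CBL stood at -0.75, PTPN1 at -0.37, ADAM10 at -0.37 and PTPN2 at 0.020.

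Transcription factors linked to the MET promoter were measured for all 15 listed genes, with a median of -0.088. 12 of them were at or above the level limit. None of these was 2-fold different, beside 2.13% higher and 3.05% lower over all genes at or above the limit. ETS2 was at 6.39 with FOXK2 and 7.38 with empty vector (difference -0.99), and reached -1.06 after centring of the arrays. EPAS1, which encodes the hypoxia-inducible factor HIF-2 alpha, was at 7.72 with FOXK2 and 6.82 with empty vector (difference 0.90). ARNT, its dimer partner, differed by 0.36 and ETS1 by -0.36. SP1, which binds GC boxes such as those in the MET window, was at 10.31 with FOXK2 and 10.29 with empty vector.

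Among 20 genes known to be induced by HGF in other cells, 13 were at or above the level limit. Of these, 1 was at least 2-fold higher and 1 lower with FOXK2, beside 2.13% higher and 3.05% lower over all genes at or above the limit. 9 of the 13 were negative, and the median over all 20 was -0.091. Of all genes at or above the limit 55.6% were negative, and of the 9603 coding genes there 5583 were. Subtracting the running median left 7 of the 13 negative and turned the sign of the median over all 20 (0.053). VEGFA, the vascular growth factor, was at 8.57 with FOXK2 and 7.34 with empty vector, 2.35-fold higher. ITGA3, a laminin-binding integrin chain, was at 11.01 with FOXK2 and 12.41 with empty vector, 2.64-fold lower. HMOX1, heme oxygenase, differed by 0.79 and FOSL1, an AP-1 subunit, by -0.67. DUSP6, a phosphatase induced by growth factor signalling, was at 9.14 with FOXK2 and 9.25 with empty vector. Of the targets reported for MACC1 besides MET, HK2, hexokinase 2, was at 5.73 with FOXK2 and 5.36 with empty vector (difference 0.37).

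MET, MACC1 and HGF all lie on chromosome 7, whose 558 genes at or above the level limit had a median difference of 0.024. ITGB8, the integrin chain that activates latent TGF-beta and the next measured coding gene beside MACC1, was at 14.80 with FOXK2 and 12.77 with empty vector, 4.10-fold higher. On the other side of MACC1 the nearest genes were TMEM196, at 4.14 with FOXK2 and 4.03 with empty vector, and POLR1F, a subunit of RNA polymerase I, which differed by -0.17. The next gene past ITGB8, ABCB5, differed by -0.13 below the level limit. Among the 30 nearest coding genes at or above the limit around MACC1, 2 were at least 2-fold higher, ITGB8 and the aryl hydrocarbon receptor gene AHR (1.24). 0 of the 30 were 2-fold lower, and their median was 0.073. Over all 9603 coding genes at or above the limit, 222 were at least 2-fold higher and 311 lower. AHR was named after its value was seen.

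Beside MET, CAV1, which encodes caveolin-1, was at 7.05 with FOXK2 and 9.46 with empty vector, 5.33-fold lower. CAV2, the next caveolin gene, was at 4.71 with FOXK2 and 5.03 with empty vector, below the level limit. On the other side, CAPZA2, an actin capping subunit, differed by 0.15, and WNT2, below the limit, by 0.14. Among the 30 nearest coding genes at or above the limit, 3 were at least 2-fold lower, CAV1, NRCAM (-1.18) and DOCK4 (-1.10), and 1 was higher, TFEC (1.08). Over all 9603 coding genes at or above the limit, 311 were at least 2-fold lower and 222 higher. NRCAM, DOCK4 and TFEC were named after their values were seen. The median of these 30 was 0.011, and MET stood at -0.43 after subtraction of the running median. Around HGF, SEMA3C differed by -0.88 and CACNA2D1, a calcium channel subunit, by 0.59, while CD36 (-0.082) and PCLO (0.48) lay below the limit. The neighbours of ST14 were PRDM10 (-0.13), APLP2 (-0.40), ZBTB44 (-0.20) and ADAMTS8 (0.038), and those of MST1R were TRAIP (0.098), CAMKV (0.16), MON1A (-0.087) and RBM6, with the same value in both arrays; ADAMTS8, CAMKV and MON1A were below the limit.

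**Figure D4:**
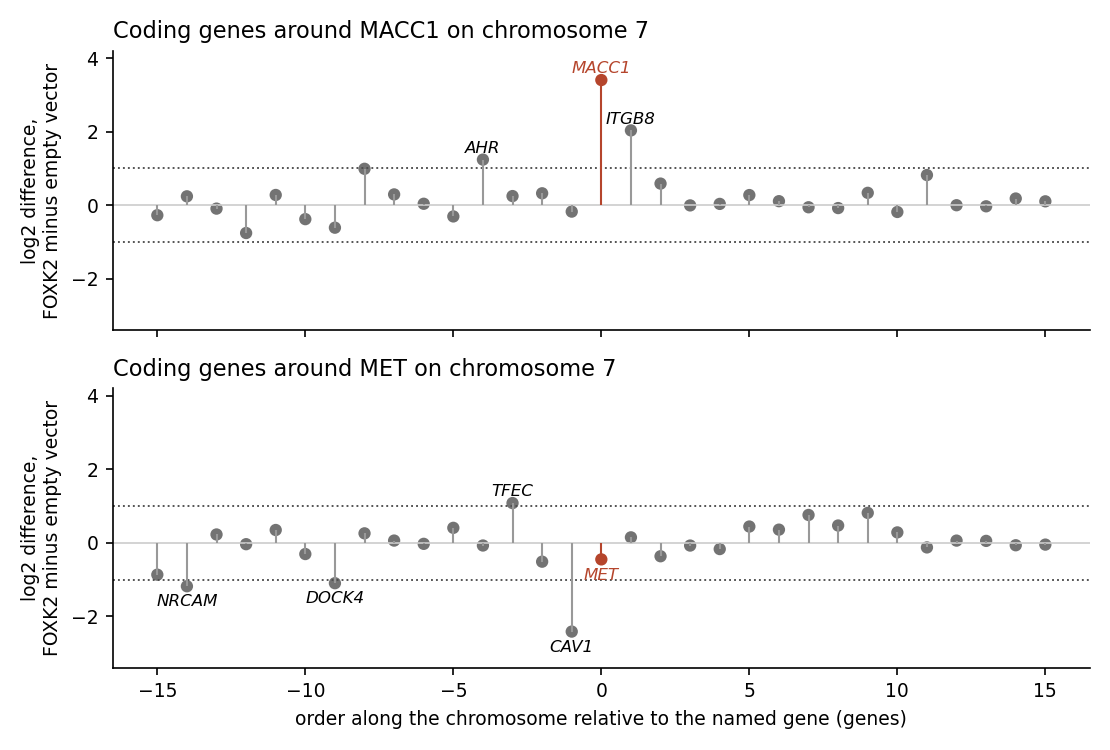
Log2 difference, FOXK2 minus empty vector (vertical axes), of the coding genes at or above the level limit nearest to MACC1 (upper panel) and MET (lower panel), in their order along chromosome 7 (horizontal axis, 15 genes on each side); dotted lines mark the 2-fold limits. ITGB8 beside MACC1 stands at 2.03 and CAV1 beside MET at -2.41. Of 30 neighbours each, 2 around MACC1 are at least 2-fold higher, and around MET 1 is at least 2-fold higher and 3 are lower. Of all 9603 coding genes at or above the limit, 222 are at least 2-fold higher and 311 lower.

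The coding genes with the pair of values most like that of MACC1 were sought by the Euclidean distance of the log2 values over the 2 arrays, among 9603 coding genes at or above the level limit. APOL1, apolipoprotein L1, was nearest at a distance of 0.38, with 11.30 in the FOXK2 array and 8.40 in the empty vector array. CRYBG1 followed at 0.64, PRRG4 at 0.86, RBP5 at 0.90 and TMEM140 at 0.94, with differences of 2.62, 2.20, 2.34 and 2.33. For MET the nearest were PFN1, the actin-binding profilin, at a distance of 0.060, RPL24 at 0.093, AP2B1 at 0.12, CCT4 at 0.15 and PTPN14 at 0.15, with differences from -0.60 to -0.36. With 1 array per group this likeness rests on 2 values and says no more than that these numbers are close.

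FOXK2 was at 13.82 in the FOXK2 array and 9.36 in the empty vector array, the direction given by the labels. Over all 67528 transcript clusters the median was 4.55 with FOXK2 and 4.48 with empty vector, and 95% of the genes at or above the limit differed by between -1.09 and 0.93. Of 12 listed markers of proximal tubule and clear-cell carcinoma, 9 were measured and all 9 were at or above the level limit; PAX8, the renal lineage factor, was at 10.80 with FOXK2 and 10.96 with empty vector. 2 of these 9 were at least 2-fold higher with FOXK2, CUBN by 3.43 and LRP2 by 3.05 on the log2 scale. 0 were 2-fold lower, beside 2.13% higher and 3.05% lower over all genes at or above the limit. Of the 9 differences 5 were positive and 4 negative, with a median of 0.45. The negative ones were VIM (-0.37), PAX8 (-0.16), PAX2 (-0.083) and CDH16 (-0.062). ANPEP, a brush border peptidase, differed by 0.90, or by 1.18 with the running median subtracted, and SLC34A1, a phosphate transporter, by 0.66. All 7 measured fibroblast markers, 5 leukocyte markers and 5 endothelial markers were below the limit, the fibroblast genes between 3.87 and 4.45 with FOXK2 and between 3.64 and 4.45 with empty vector. The log2 values of the 7 fibroblast markers added up to 28.8 with FOXK2 and 28.1 with empty vector. Of 7 measured hepatocyte markers, 2 were at or above the limit: SERPINA1, given above, and FGB, fibrinogen beta, which was at 4.95 with FOXK2, below the limit, and 6.16 with empty vector, 2.30-fold lower. Its fold is uncertain, and its difference was -0.66 once the running median was subtracted.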

How the data were processed

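Expression was measured in 2 arrays of 769-P cells, 1 with FOXK2 and 1 with empty vector. Each deposited value is the log2 expression of 1 transcript cluster in 1 array; the authors used Affymetrix Expression Console, per the submitters' processing notes. Algorithm, version and build were not given in the sources used here. That values are log2 was read from their range (2.13 to 19.93). No further normalization was applied.

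The platform's annotation named the transcript clusters (23781 with 1 symbol, 1543 with several and 42204 with none), and symbols were brought up to date with RefSeq's genes on GRCh38.p14, which also gave the order of genes. Clusters of a gene were averaged. A difference is the FOXK2 value minus the empty vector value; 1 array per group limits the precision and allows no test.

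The members and the 14 gene lists (131 of 145 listed genes measured) were chosen with earlier results of these data known. Named from the lists were genes at or above the level limit that were 2-fold different and, up to 4 per list with these, those with the largest differences; likewise the 2 nearest measured coding genes on each side of 5 members, and the 5 genes nearest in values to MACC1 and to MET. GAB1, SP1, DUSP6, PAX8 and MACC1-AS1 were named for their roles after their values were seen, outside this rule. VIM, PAX2 and CDH16 were also named outside it, as markers with negative differences.

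Alternatives were centring on array medians, quantile normalization, a loess correction for level (span 0.3) and the brightest cluster per gene. Further ones were subtraction of the running median of 51 genes in chromosome order, and other level and fold limits. List medians were also taken over genes at or above the level limit only. The 2-fold calls, centring, loess, quantile normalization and running median were tried on simulated data. The simulated noise was smaller than the spread of the real differences, so this was an easy check. The list, likeness and motif steps were not tried. Python 3.11.15, numpy 2.4.6, pandas 2.3.3, statsmodels 0.14.6 and matplotlib 3.10.9 were used.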

Additional observations from a re-analysis of the deposited data

How the results depend on the processing

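MACC1 was the 1 member at least 2-fold higher, and 0 were 2-fold lower, under every scaling, position, level and fold alternative. Its difference lay between 3.33 and 3.45 over the 5 scaling and position alternatives, that of MET between -0.52 and -0.37, and that of SPINT2 between -0.20 and -0.068. Among members below the level limit the sign was not stable: HGFAC turned negative under 4 of 5 alternatives, and SPINT1 and MST1R under 1 each. A value was counted as moved where it shifted by over 0.094, the median disagreement between clusters of a gene, or crossed 2-fold. After subtraction of the running median, HGF stood at 0.18, HGFAC at -0.083 and SPINT1 at 0.43, and the list medians were 0.17 for the activating proteases, -0.11 for the MET partners, 0.036 for the adaptors, -0.014 for MET downregulation, 0.053 for the HGF-induced genes and 0.19 for the hepatocyte markers. Over genes at or above the level limit only, the medians were -0.13 for the MET partners, -0.34 for MET downregulation, -0.050 for the MACC1 relatives and targets and -0.13 for the hepatocyte markers. The cause of these shifts was not tested. The other 70 of 80 list medians moved by less. Centring shifted the median of all genes at or above the limit to -0.12, from -0.050 as deposited, with 215 genes 2-fold higher and 416 lower, against 240 and 344. After subtraction of the running median 269 were higher and 231 lower. No paired analysis was possible because each group had 1 array. Signal over background was not known, which limits what can be said of the 6 members below the level limit.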

Other observations

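Where a gene had several transcript clusters, these did not always move together. PLCG1, the phospholipase C that MET activates, had one cluster at 8.03 with FOXK2 and 8.37 with empty vector (difference -0.34) and another at 5.23 with FOXK2 and 4.91 with empty vector (difference 0.32). The second cluster lay below the level limit in both arrays, where signal over background is not known, and the mean of both differed by -0.010. DCN, decorin, which can bind MET as an antagonist, had one cluster with a difference of 0.66 and another with 0.002, both below the level limit.

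Within the genes known to be induced by HGF, PTGS2, which encodes cyclooxygenase 2, was at 5.19 with FOXK2 and 4.28 with empty vector (difference 0.91) below the level limit. EGR1, an immediate early transcription factor, was at 13.31 with FOXK2 and 12.70 with empty vector. HIF1A, on the list of factors linked to the MET promoter, was at 4.01 with FOXK2 and 4.18 with empty vector, below the level limit in both arrays, whereas EPAS1 and ARNT were above it in both. These genes were named after their values were seen.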
